A study of Rattus norvegicus with 9 samples.

Results

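The genes described here encode matricellular proteins and matrix proteases, secreted proteins that bind or cut the matrix around cells. The set of 5 genes was Adamts1 and Adamts4, metalloproteases, Ccn1 and Ccn2, formerly Cyr61 and Ctgf, and Thbs1, thrombospondin 1. Members were found as probe sets annotated to exactly 1 gene with one of these symbols. Such probe sets existed for 4 of the 5 genes, 1 probe set each, out of 31099 probe sets on the array, and all 4 genes were among the 10337 genes that passed the intensity minimum, a mean log2 intensity of at least 5 over the arrays. No probe set was listed for Thbs1 in the annotation used, so Thbs1 was not analysed here. The members were chosen by their measured levels on these same arrays, in every comparison of doses and in the bend over the doses described further on. The values of the members are therefore a description without a test.

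ADAMTS proteases cleave large proteoglycans of the matrix. ADAMTS1 cuts versican and aggrecan and restrains the growth of blood vessels, and ADAMTS4 is known as an aggrecanase of cartilage. CCN proteins are secreted, bind integrins and heparan sulfate proteoglycans, and are made quickly by cells that are stretched, wounded or given serum. CCN1 is known for roles in adhesion, senescence and repair, and CCN2 for its role in fibrosis and for its expression in the glomerulus of the kidney. Transcription of Ccn1 and Ccn2 is a widely used readout of YAP and TAZ, the coactivators of the TEAD factors that the Hippo pathway restrains.

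Kidney RNA came from 9 Sprague-Dawley rats, an outbred stock bought at an age of 8 weeks and kept for 1 week before the study. Rats were injected into the peritoneum once daily for 7 days with saline vehicle (0 mg/kg) or with colistin methanesulfonate (CMS), which is converted in the body to the antibiotic colistin, at 25 mg/kg (CMS25) or 50 mg/kg (CMS50). Each dose had 3 rats, labelled as biological replicates, with 1 array per rat of RNA from the whole right kidney, so that a level is a mean over all cell types and more cells of a type cannot be told apart from more RNA per cell. By the labels, vehicle kidneys had no lesion, CMS25 kidneys had basophilic, dilated tubules, and CMS50 kidneys had necrosis, degenerating tubules and casts. Values are log2 intensities, group values are means ± SD with n = 3, and a difference is given with the standard error (SE) of a fit of all 3 groups. The number of rats limits the precision.

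To show where motifs lie before 3 of these genes, the 250 bases before the annotated transcript start are printed 5′ to 3′ on the strand of the gene. They are from RefSeq, build GRCr8, at chr11:38427385-38427634 (- strand) for Adamts1, chr2:237225690-237225939 (- strand) for Ccn1 and chr1:22624615-22624864 (- strand) for Ccn2. Capitals mark the matches found among 4 motifs searched on both strands. Those were GGAATG, the core bound by TEAD factors, the AP-1 motif TGANTCA, the CArG box bound by SRF, and TATAAA, the core of the TATA box.
Adamts1: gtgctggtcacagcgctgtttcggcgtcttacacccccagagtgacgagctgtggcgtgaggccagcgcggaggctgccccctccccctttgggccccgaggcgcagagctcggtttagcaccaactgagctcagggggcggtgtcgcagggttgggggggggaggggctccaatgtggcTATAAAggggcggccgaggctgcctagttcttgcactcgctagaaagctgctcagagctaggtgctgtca
Ccn1: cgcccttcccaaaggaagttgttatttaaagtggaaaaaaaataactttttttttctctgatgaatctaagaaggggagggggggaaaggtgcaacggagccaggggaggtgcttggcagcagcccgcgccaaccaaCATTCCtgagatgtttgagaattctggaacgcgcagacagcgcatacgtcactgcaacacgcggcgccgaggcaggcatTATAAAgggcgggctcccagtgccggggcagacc
Ccn2: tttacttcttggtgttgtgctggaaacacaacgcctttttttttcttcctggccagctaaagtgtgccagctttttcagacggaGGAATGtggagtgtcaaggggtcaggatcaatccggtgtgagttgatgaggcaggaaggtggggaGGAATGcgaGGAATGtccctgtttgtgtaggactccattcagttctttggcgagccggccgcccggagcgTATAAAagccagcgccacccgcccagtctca

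The upstream window of Ccn2 held 3 TEAD matches, which began 166, 101 and 92 bases before the start, all on the strand of the gene. Ccn1 held 1 TEAD match, on the other strand, 113 bases before the start. Adamts1 and Adamts4 held 0. Of 27457 rat windows of the same length, 11.8% held at least 1 TEAD match and 0.0911% (25 windows) held 3 or more. A TATAAA match stood 31 bases before the start of Ccn2, 34 before that of Ccn1 and 70 before that of Adamts1, and 13.1% of all windows held at least 1. The AP-1 motif (6.36% of all windows) and the CArG box (1.50%) had no match before any of the 4 measured genes, and Adamts4, whose window was searched in the same way at chr13:86202761-86203010, had no match of any kind. No match overlapped another. These matches describe letters in a short window and do not show whether a factor binds there.

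**Figure D1:**
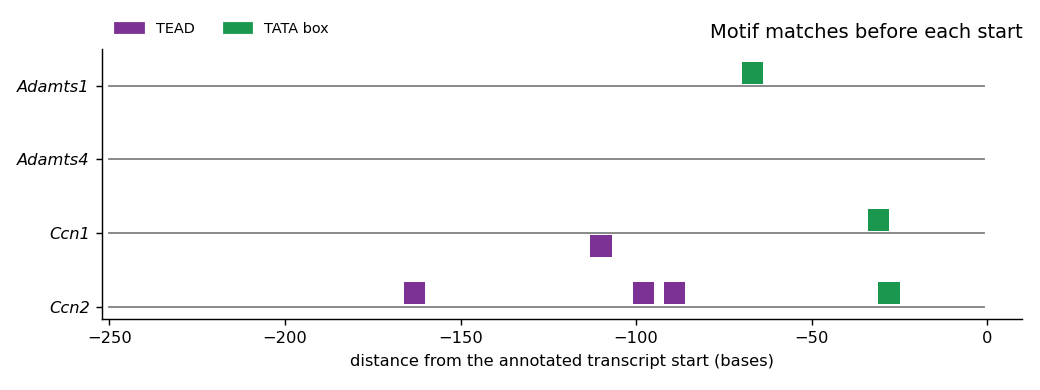
Motif matches in the 250 bases before the annotated start of each measured gene. The horizontal axis is the distance from the start in bases, purple blocks are TEAD matches and green blocks TATAAA matches, and blocks above a line are on the strand of the gene. Ccn2 has 3 TEAD matches, Ccn1 has 1 and the ADAMTS genes have 0.

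Adamts1 (probe set 1368223_at) was the member with the largest difference. Its log2 intensity was 7.94, 7.85 and 7.60 in vehicle replicates 1, 2 and 3, and 7.56, 8.18 and 7.35 in the CMS25 replicates. In CMS50 replicates 1, 2 and 3 it was 11.73, 11.18 and 10.64. The vehicle and CMS25 arrays were interleaved, and the lowest CMS50 array lay well above the highest of the other 6. Group means were 7.79 ± 0.17, 7.69 ± 0.43 and 11.18 ± 0.55 for vehicle, CMS25 and CMS50. CMS50 was thus 10.5-fold above vehicle (log2 difference 3.39, SE 0.28) and 11.2-fold above CMS25 (3.49, SE 0.28), whereas CMS25 minus vehicle was -0.10 (SE 0.28). Among 10337 genes this was the 8th largest difference between CMS50 and vehicle and the 10th largest between CMS50 and CMS25.

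Adamts4 (1393730_at) was dim in vehicle kidneys, close to the intensity minimum, so its fold is approximate. Vehicle replicates 1, 2 and 3 read 5.0, 5.15 and 4.93, and CMS25 replicates 5.44, 5.15 and 5.14. CMS50 replicates read 6.33, 7.36 and 5.77. All CMS50 arrays were above all others, but they spread over 1.59 log2 units. The group means of Adamts4 were 5.03 ± 0.11, 5.25 ± 0.17 and 6.49 ± 0.81. The CMS50 minus vehicle difference of Adamts4 was 1.46 (SE 0.32), a 2.76-fold higher level, and CMS50 minus CMS25 was 1.25 (SE 0.32). CMS25 minus vehicle was 0.22 (SE 0.32).

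Ccn1 (1368290_at) followed the same order of doses as Adamts1. It read 5.69, 5.59 and 5.27 in vehicle replicates 1, 2 and 3, 5.01, 5.41 and 4.93 in CMS25, and 7.37, 7.92 and 6.92 in CMS50. CMS50 arrays did not overlap with any other, whereas CMS25 replicate 2 lay within the vehicle range and the other CMS25 arrays lay below it. Means were 5.51 ± 0.22, 5.12 ± 0.26 and 7.40 ± 0.50. Ccn1 was 3.70-fold higher in CMS50 than in vehicle (1.89, SE 0.24) and 4.88-fold higher than in CMS25 (2.29, SE 0.24), folds that are approximate because the CMS25 mean lay close to the intensity minimum. CMS25 minus vehicle was -0.40 (SE 0.24), which only 2.25% of all genes undercut.

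Ccn2 (1367631_at) is the closest relative of Ccn1 in the set and had another pattern. Its vehicle replicates 1, 2 and 3 read 9.80, 10.61 and 10.49, its CMS25 replicates 10.32, 9.36 and 9.26, and its CMS50 replicates 9.91, 10.85 and 9.71. The 3 groups overlapped, the highest array being CMS50 replicate 2 and the lowest 2 being CMS25 replicates 3 and 2. Means were 10.30 ± 0.44, 9.64 ± 0.58 and 10.16 ± 0.61. CMS50 minus vehicle was -0.14 (SE 0.37, 95% interval -0.98 to 0.69). CMS25 minus vehicle was -0.66 (SE 0.37), the 42nd lowest of 10337 genes, with an interval of -1.49 to 0.18. Without CMS25 replicate 1 this difference was -0.99, and without CMS25 replicate 3 it was -0.46.

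**Figure D2:**
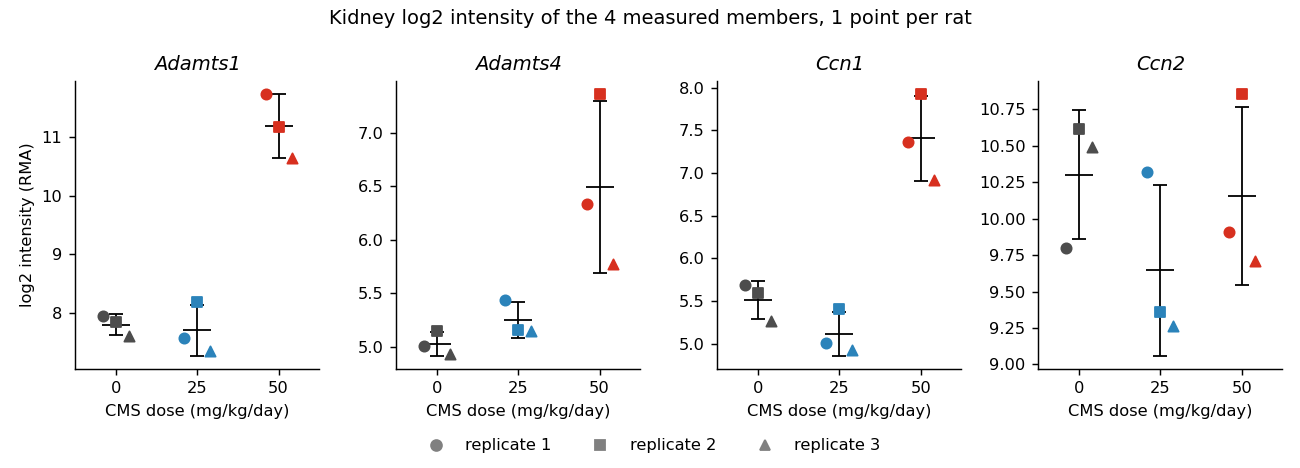
Log2 intensity of the 4 measured genes (vertical axes, 1 panel per gene, each with its own range) against the daily CMS dose in mg/kg. Points are single rats, marker shapes are replicate numbers, and bars are means ± SD with n = 3. The CMS50 points of Adamts1, Adamts4 and Ccn1 lie above all others, and those of Ccn2 overlap with both other groups.

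By limma with Benjamini-Hochberg adjustment over all genes, 3 of the 4 measured members, Adamts1, Adamts4 and Ccn1, had an adjusted p under 0.05 in CMS50 minus vehicle, where 31.1% of all genes did, 19.6% being higher and 11.4% lower. The same 3 were called in CMS50 minus CMS25, where the share of all genes was 30.3%, or 20.8% for higher values alone. Adamts4 lost the latter call without CMS25 replicate 2 or 3, and 2 of the 4 were called with either left out. In CMS25 minus vehicle 0 of 4 and 0 of all genes were called (0%), and 604 genes had an unadjusted p under 0.05. The arrays of Adamts1, Adamts4 and Ccn1 in CMS50 did not overlap with vehicle, as was so for higher values in 30.6% of all genes, nor with CMS25 (30.4%). Since these contrasts define the set, nothing is read from the counts. The median difference of the 4 was 1.68 in CMS50 minus vehicle, against 0.05 over all genes, and -0.25 in CMS25 minus vehicle, against -0.02.

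The shape over the doses was read from the bend, CMS50 minus 2 times CMS25 plus vehicle, which is 0 when each step of dose adds the same log2 amount and positive when the upper step is larger. The bend shares its arrays with the differences above. It was 3.59 (SE 0.49) for Adamts1, 10th highest of 10337 genes, and 2.69 (SE 0.42) for Ccn1, 30th highest. For Adamts1, Ccn1 and Ccn2 the CMS25 mean lay below the vehicle mean, and the bend therefore exceeded the CMS50 minus vehicle difference. Ccn2 had a bend of 1.17 (SE 0.64, interval -0.27 to 2.61) and Adamts4 one of 1.03 (SE 0.56, interval -0.23 to 2.29). Ccn2's bend was 1.84 without CMS25 replicate 1 and 0.78 without CMS25 replicate 3, and that of Adamts4 was 0.59 without CMS50 replicate 2. The bend was called for 2 of 4 members, Adamts1 and Ccn1, both higher, and for 0.445% of all genes (0.397% higher). The bend was among the values by which the members were chosen, so nothing is read from this count. That count of members was 0 without any 1 vehicle or CMS25 array, 1 (Adamts1) without CMS50 replicate 1 and 1 (Ccn1) without CMS50 replicate 2.

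**Figure D3:**
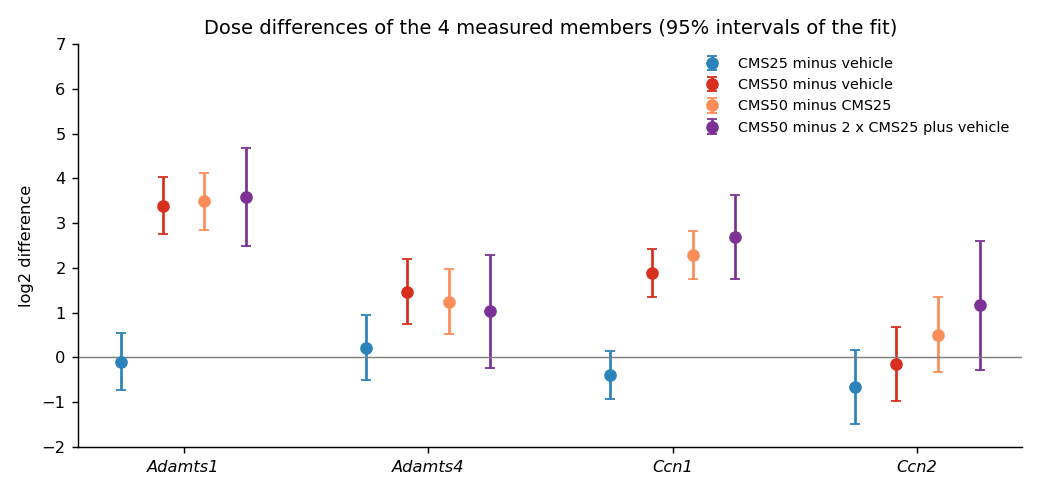
Differences between doses for the 4 measured genes, in log2 units on the vertical axis, with 95% intervals of the fit (n = 3 rats per group). Colours are the 3 pairwise differences and the bend. In CMS25 minus vehicle all 4 intervals include 0, and in CMS50 minus vehicle those of Adamts1, Adamts4 and Ccn1 lie above 0.

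The rats of CMS50 did not rank alike for every member. Relative to the vehicle mean, CMS50 replicates 1, 2 and 3 stood at 3.94, 3.38 and 2.84 for Adamts1. For Ccn1 they stood at 1.85, 2.41 and 1.41, for Adamts4 at 1.31, 2.34 and 0.75, and for Ccn2 at -0.39, 0.55 and -0.59. CMS50 replicate 3 was thus the lowest of its group for all 4 genes. CMS50 replicate 2 was the highest for Adamts4, Ccn1 and Ccn2, and replicate 1 for Adamts1. Without CMS50 replicate 3 the CMS50 minus vehicle differences were 3.66 for Adamts1, 1.82 for Adamts4, 2.13 for Ccn1 and 0.08 for Ccn2.

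Markers of several cell types and the 3′ to 5′ reading of beta-actin differed at the dose at which 3 of these genes were high. Markers are said to rise or fall at a limma adjusted p under 0.05 in CMS50 minus vehicle. Over all genes 19.6% rose and 11.4% fell. Of 8 macrophage markers on the array, 7 passed the intensity minimum (Cd163 was dim) and these rose in CMS50 against vehicle. One of them, Mrc1, passed the minimum through its CMS50 arrays, so it could be counted here only with a rise. The summed linear intensity of all 8 was 395 to 475 in vehicle, 358 to 477 in CMS25 and 859 to 1883 in CMS50. Sums in this paragraph cover every marker of a list on the array, dim ones included. Of 7 fibroblast and pericyte markers, 6 passed (Lum was dim) and 5 rose, with sums of 1726 to 1960, 1213 to 2836 and 3263 to 6889. Among 5 platelet markers, where thrombospondins are also stored, 3 passed (Ppbp and Gp5 were dim) and 0 were called, with sums of 306 to 348, 317 to 416 and 304 to 416. Podocyte markers, 5 of 5 above the minimum, summed to 1290 to 2260, 1276 to 1891 and 915 to 1255, with 2 falling. Loop and distal tubule markers (4 of 5 passed, Pvalb was dim) summed to 19530 to 23236, 20297 to 21524 and 6406 to 18147, with 3 falling, and collecting duct markers (5 of 5 passed) to 6796 to 8510, 5532 to 10754 and 2949 to 4949, with 3 falling. Of 6 endothelial markers 5 passed (Flt1 was dim) and 2 fell, with sums of 1914 to 2139, 1539 to 2178 and 1435 to 1486. Of 6 smooth muscle markers 4 passed (Cnn1 and Actg2 were dim) and 2 rose, with sums of 284 to 324, 230 to 320 and 326 to 594. Of 8 proximal tubule markers 1 rose and 3 fell, with sums of 43128 to 45728, 43790 to 48610 and 39096 to 43967. The difference between 3′ and 5′ beta-actin control probe sets was 2.80 to 3.08 in vehicle, 3.05 to 3.28 in CMS25 and 3.48 to 3.63 in CMS50. The same difference for GAPDH was 0.51 to 0.56 in vehicle, 0.50 to 0.91 in CMS25 and 0.77 to 0.89 in CMS50, so that the highest array was one of CMS25. The part of these readings in the values of the members, and that of the smooth muscle markers in the SRF and actin genes described further on, was not tested. Of kidney markers, 8 of 8 proximal tubule and 5 of 5 collecting duct genes were above the minimum. That is a weak check of the labelled tissue, since 10337 of 14217 genes passed it.

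The genes with the most similar pattern were found by the mean absolute difference between 2 genes over the 9 arrays, each gene taken relative to its own vehicle mean. They were chosen for that likeness and carry no test. For Adamts1 these were Gpx2, a glutathione peroxidase (0.17 log2 units), Gpnmb, a glycoprotein of phagocytic cells (0.26), and Timp1, an inhibitor of metalloproteases (0.26). Gpnmb had vehicle and CMS25 means below 5 and passed the minimum through CMS50 (4.99, 4.88 and 8.49). It could thus be listed here only with a rise. For Ccn1 they were Prtfdc1 (0.13), Mgp, a matrix protein that inhibits calcification (0.16), and Ect2, an exchange factor of cytokinesis (0.16). Ect2 had a CMS50 minus vehicle difference of 1.79 and a CMS25 minus vehicle difference of -0.64, against 1.89 and -0.40 for Ccn1. The genes nearest to Adamts4 were Lbh (0.15), Cyp1b1, a cytochrome P450 (0.15), and Col4a2, a basement membrane collagen chain (0.15). Cyp1b1 had means of 4.82 in vehicle, 5.07 in CMS25 and 6.22 in CMS50, so its CMS50 arrays helped it past the minimum. Nearest to Ccn2 were Ddit4, a stress-induced inhibitor of mTORC1 (0.20), Tinagl1, a basement membrane protein (0.28), and Sgk1, a kinase induced by corticosteroids (0.29). Sgk1 read -0.82 in CMS25 minus vehicle and -0.45 in CMS50 minus vehicle, and Ddit4 read -0.55 and -0.18. Neighbours of Adamts1 were stable, with at least 2 of the 3 kept when any 1 array was left out. Those of Adamts4 were not, with 0 kept without CMS25 replicate 1 or without CMS50 replicate 1, and for Ccn1 and Ccn2 as few as 1 of 3 was kept.

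**Figure D4:**
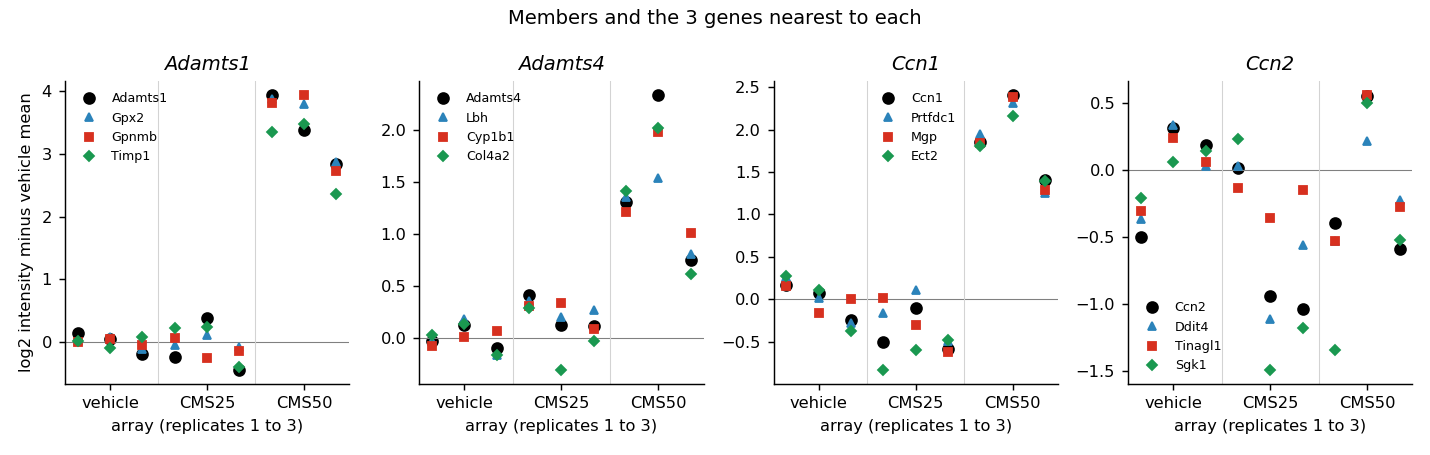
Log2 intensity minus the vehicle mean of the gene (vertical axis) on each of the 9 arrays for every measured member (black) and the 3 genes nearest to it (coloured). Within a group the points are replicates 1 to 3. Adamts1 and its neighbours stand near 0 in vehicle and CMS25 and between 2 and 4 in CMS50, and Ccn2 and its neighbours have their lowest mean in CMS25.

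Relatives of the 2 proteases were higher in CMS50 to a smaller extent. Of 22 further ADAMTS and ADAMTS-like genes, 10 passed the intensity minimum, 4 rose in CMS50 against vehicle and 0 fell, with 7 higher and 0 lower at an unadjusted p under 0.05. Their median difference was 0.41, against 0.05 over all genes, of which 19.6% rose and 11.4% fell. Adamtsl4, a fibrillin-binding relative without a protease domain, read 7.14, 7.12 and 6.93 in vehicle, 6.98, 7.02 and 7.03 in CMS25 and 8.35, 8.30 and 7.71 in CMS50 (difference 1.05, SE 0.16, adjusted p = 0.00301). Adamts9, a versican-cleaving protease, rose by 0.89 (SE 0.20, adjusted p = 0.0104), and by 0.54 when its probe sets were averaged. Adamts7 (0.37, adjusted p = 0.0315) and Adamts10 (0.31, adjusted p = 0.0259) completed the rises, and both lost the call without vehicle replicate 2, vehicle replicate 3, CMS50 replicate 1 or CMS50 replicate 2, Adamts10 also without vehicle replicate 1. Adamts7 lost it too with each probe set tested (adjusted p = 0.0513), and Adamts10 over the mean of its probe sets (adjusted p = 0.0699). The count of rises was 2 without vehicle replicate 2 and without CMS50 replicate 2. The aggrecanase Adamts5 read 0.28 (SE 0.25, adjusted p = 0.422) and Adamts15 0.44 (SE 0.16, adjusted p = 0.0591), which passed without vehicle replicate 3 (adjusted p = 0.0413), without CMS50 replicate 3 (adjusted p = 0.0381) and with array weights (adjusted p = 0.0396).

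Another list held substrates and cofactors of ADAMTS proteases and inhibitors of metalloproteases in general. Among its 14 measured genes, 6 rose and 0 fell, with 1 lower at an unadjusted p under 0.05 and 1 fall called without CMS50 replicate 3. The count of rises was 4 without vehicle replicate 1. One of the 6 was Sdc4, which is also in the list of receptors and is described there. Over all genes 19.6% rose and 11.4% fell. Timp1, listed as a general inhibitor of metalloproteases, read 5.76, 5.65 and 5.82 in vehicle, 5.97, 5.99 and 5.35 in CMS25 and 9.10, 9.23 and 8.11 in CMS50. Its difference was 3.07 (SE 0.28, adjusted p = 0.000697). Timp3, the main tissue inhibitor of ADAMTS4 and ADAMTS5, differed by 0.06 (SE 0.15, 95% interval -0.29 to 0.40, adjusted p = 0.805). Fibronectin (Fn1) rose by 2.04 (SE 0.45, adjusted p = 0.0109) and the small proteoglycans decorin (Dcn) by 1.66 (SE 0.39, adjusted p = 0.0136) and biglycan (Bgn) by 0.77 (SE 0.23, adjusted p = 0.0347). The biglycan call ended without any 1 vehicle array and without CMS50 replicate 1 or 2. Versican (Vcan), a substrate of ADAMTS1, was below the intensity minimum with all its 5 probe sets.

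Other matricellular genes did not share 1 direction. Of 11 measured, 1 rose and 2 fell in CMS50 against vehicle, with a median of 0.02, where 19.6% of all genes rose and 11.4% fell. Spp1 (osteopontin) read 10.36, 11.86 and 9.89 in vehicle, 11.38, 9.25 and 10.06 in CMS25 and 14.35, 14.49 and 14.20 in CMS50 (difference 3.65, SE 0.57, adjusted p = 0.00333). Tgfbi, a matrix protein induced by TGF-beta, fell by 1.34 (SE 0.32, adjusted p = 0.0143) and Smoc1, a SPARC-related protein, fell by 0.74 (SE 0.19, adjusted p = 0.0177). Both calls ended without vehicle replicate 2 or CMS50 replicate 1, when 0 falls remained. Tgfbi also lost its call without CMS50 replicate 2, and Smoc1 without vehicle replicate 1, with 1 fall left each time. There were 2 rises without CMS25 replicate 1 and without CMS50 replicate 3. Of the CCN family beside the members, Ccn6 passed the minimum and differed by -0.82 (SE 0.28, adjusted p = 0.0507, 0.0161 to 0.168 over the alternatives), with a call without CMS25 replicate 1 or 3 or CMS50 replicate 3, among others. Its size is approximate, since Ccn6 read 4.95, 4.55 and 5.36 in CMS50, close to the minimum. Ccn3, Ccn4 and Ccn5 were below it. Thbs2 differed by 0.02 (SE 0.16, adjusted p = 0.940), and Thbs3, Thbs4 and Comp, the further thrombospondins, were below the minimum.

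Of 13 measured receptors for these ligands, among them integrin chains, syndecans and thrombospondin receptors, 3 rose and 0 fell, where 19.6% of all genes rose and 11.4% fell, 1 being lower at an unadjusted p under 0.05. Sdc1, a heparan sulfate proteoglycan, rose by 0.87 (SE 0.14, adjusted p = 0.00349), or 0.49 over the mean of its probe sets, and the integrin chain Itgb1 by 0.54 (SE 0.11, adjusted p = 0.00728). Sdc4, another heparan sulfate proteoglycan, rose by 0.51 (SE 0.16, adjusted p = 0.0370), a call that ended without any 1 vehicle array, without CMS50 replicate 1 or 2, with each probe set tested (adjusted p = 0.0527), with only the 2 compared groups (adjusted p = 0.0505) and with the replicate number as a block (adjusted p = 0.0539). The thrombospondin receptors Cd36 and Cd47 differed by -0.56 (SE 0.30, adjusted p = 0.189) and -0.05 (SE 0.09, adjusted p = 0.714).

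Known targets of YAP and TAZ, the list to which Ccn1 and Ccn2 belong, moved in both directions. Of 18 further targets measured, 6 rose and 3 fell, with a median of 0.23, where 19.6% of all genes rose and 11.4% fell. Tgfb2, a TGF-beta ligand, read 5.83, 6.07 and 5.90 in vehicle, 7.18, 5.57 and 5.99 in CMS25 and 9.14, 8.53 and 7.35 in CMS50 (difference 2.41, SE 0.48, adjusted p = 0.00719, and 1.52 over the mean of its probe sets). Axl, a receptor tyrosine kinase, rose by 1.65 (SE 0.22, adjusted p = 0.00244) and Myof (myoferlin) by 1.29 (SE 0.24, adjusted p = 0.00564). Igfbp3, an IGF-binding protein, fell by 1.50 (SE 0.33, adjusted p = 0.0106). The further falls, named after their values were seen, were Crim1 (-0.55, adjusted p = 0.00463) and Fjx1 (-0.64, adjusted p = 0.0333). Amotl2, a common readout of YAP and an inhibitor of it, differed by 0.31 (SE 0.21, adjusted p = 0.302), and Ankrd1 was below the minimum. Of 16 Hippo pathway components, 2 rose and 1 fell, again beside 19.6% and 11.4% of all genes. The rises were Tead2 (0.72, SE 0.15, adjusted p = 0.00938) and the kinase Stk3 (0.63, SE 0.14, adjusted p = 0.0108), and Tead4 fell by 0.39 (SE 0.11, adjusted p = 0.0285). Tead4 read 5.13, 5.08 and 4.74 in CMS50, close to the intensity minimum, so the size of its fall is approximate. Without CMS50 replicate 3 there were 4 rises, and the fall of Tead4 was not called without vehicle replicate 1 or 2 or without CMS50 replicate 2 or 3. Wwtr1, which encodes TAZ, had a 95% interval from -0.31 to 0.31 (adjusted p = 0.992), and Yap1 was not analysed here.

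Genes of TGF-beta signalling, which thrombospondin 1 activates from its latent form, had 5 rises and 4 falls among 18, with a median of 0.03. Over all genes 19.6% rose and 11.4% fell. Besides Tgfb2 and Tgfbi, the repressor Tgif1 rose by 1.98 (SE 0.22, adjusted p = 0.00174), the matrix protein Ltbp2 by 1.51 (SE 0.37, adjusted p = 0.0157, lost without CMS50 replicate 1) and the latent TGF-beta binding protein Ltbp4 by 1.48 (SE 0.23, adjusted p = 0.00313). The further genes called, named after their values were seen, were Smad3, a signal transducer, which rose by 0.63, and the inhibitors Bambi, Smad7 and Smad6, which fell by 0.58, 0.69 and 0.35. The count of falls was 1 without vehicle replicate 2 or CMS50 replicate 1 and 2 without CMS50 replicate 2. Tgfb1 was below the minimum.

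Genes regulated by SRF and actin, and immediate early genes, classes that also include Ccn1, were mostly higher. Of 16 measured SRF and actin genes, 12 rose and 0 fell (13 and 0 at an unadjusted p under 0.05), with a median of 0.82. Over all genes 19.6% rose and 11.4% fell. Flna, which crosslinks actin, rose by 1.43 (SE 0.25, adjusted p = 0.00453), the calponin Cnn2 by 1.34 (SE 0.27, adjusted p = 0.00723), Tagln2, a relative of transgelin, by 1.24 (SE 0.25, adjusted p = 0.00724) and Filip1l by 1.13 (SE 0.27, adjusted p = 0.0137, lost without CMS50 replicate 1). That count was 7 without CMS50 replicate 1. Of 14 immediate early genes, 10 rose and 0 fell (10 and 0 at an unadjusted p under 0.05), with a median of 0.69, and the count was 6 without CMS50 replicate 1 or 2. One of the 10, the transcription factor Atf3, had vehicle and CMS25 means below 5 and passed the minimum through CMS50 (4.54, 4.65 and 7.16). Atf3 could thus be counted here only with a rise, and 9 of the other 13 rose. The transcription factor Klf6 read 7.95, 8.06 and 8.07 in vehicle, 7.93, 8.13 and 7.69 in CMS25 and 10.46, 10.31 and 9.34 in CMS50 (difference 2.01, SE 0.26, adjusted p = 0.00215). Myc rose by 2.28 (SE 0.34, adjusted p = 0.00303) and Fos by 1.65 (SE 0.24, adjusted p = 0.00296), the last by 0.77 over the mean of its probe sets.

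None of these 9 lists had a called gene in CMS25 minus vehicle, and 2 of their genes had a called bend, Jun (1.52, SE 0.22, adjusted p = 0.0359) and Timp1 (3.02, SE 0.49, adjusted p = 0.0434). Neither was called without any 1 vehicle array, without CMS25 replicate 2 or 3, or without CMS50 replicate 1 or 2. Timp1 was also not called without CMS25 replicate 1, nor Jun over the mean of its probe sets (1.24, adjusted p = 0.0541). Other named list genes gained a called bend under some of the alternatives. Among them, Tgif1 (2.08) and Axl (1.98) gained it under 3 each, and Myc (2.61) and Klf6 (2.23) under 2 each. These lists share the arrays and the dose comparison with the members, and they were chosen with earlier results of the same arrays known.

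**Figure D5:**
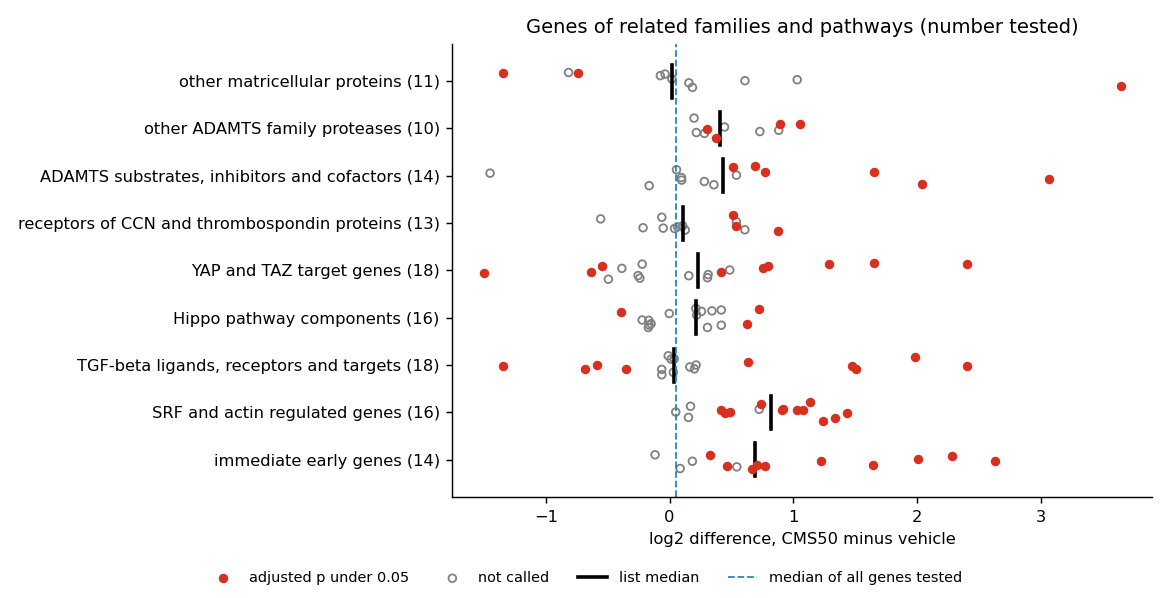
CMS50 minus vehicle difference (log2, horizontal axis) of every measured gene in 9 lists of related genes, with the number tested in brackets. Red points passed an adjusted p of 0.05, open points did not, black bars are list medians and the dashed line is the median of all genes. SRF and actin genes and immediate early genes lie mostly to the right, and YAP and TAZ targets and TGF-beta genes on both sides.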

How the data were processed

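RNA from 9 kidneys, 3 per dose, was hybridised to Affymetrix rat arrays. The values as deposited are on a log2 scale. The submitters' processing notes name RMA and Affymetrix Expression Console, without a version. RMA equalises the distributions of arrays and compresses dim probe sets. The values were used as deposited. Of 31042 non-control probe sets, 20826 had 1 gene symbol in the platform annotation. The probe set with the highest mean stood for each of 14217 genes, and genes with a mean under 5 were left out, leaving 10337.

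One limma model (version 3.58.1, under R 4.3.3) held all 3 groups, with Benjamini-Hochberg adjustment over all genes and calls at an adjusted p under 0.05. The fit was tested on simulated data. Members, lists, tests and alternatives were chosen with earlier results of these data known. Named genes are the members, the 3 genes nearest to each, the closest family genes and, per list, up to 4 called genes with the largest CMS50 minus vehicle difference and up to 2 in each other contrast. No batch is given in the labels. Deviations of same-numbered arrays correlated from -0.18 to 0.26 over genes. With 3 arrays per group this cannot settle whether same-numbered arrays belong together, and the main fit did not pair them. Figures used matplotlib 3.10.9 under Python 3.11.15.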

Additional observations from a re-analysis of the deposited data

How the results depend on the processing

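Results were recomputed with other scalings, intensity minimums, ways to choose probe sets and variance models, with weights per array, with a replicate block, with only the compared groups, and without each array in turn. The differences of the 4 members kept their direction in CMS50 minus vehicle for Adamts1 (3.11 to 3.66), Adamts4 (1.03 to 1.82) and Ccn1 (1.63 to 2.13), while Ccn2 ran from -0.49 to 0.08. With a minimum of 6, Adamts4 was not tested. Genes called in CMS50 minus vehicle numbered 3211, and 1687 to 3546 when 1 array was left out (fewest without CMS50 replicate 2, also 1711 without CMS50 replicate 1 and 1852 without vehicle replicate 2). In CMS50 minus CMS25 they numbered 3128, and 1569 to 3518 (fewest without CMS50 replicate 2, also 1737 without CMS50 replicate 1 and 2008 without CMS25 replicate 3), and cyclic loess scaling moved the share of higher calls from 68.8% to 58.8%. The bend had 46 calls, 83 with each probe set tested, 78 with trend and robust variances, 212 with array weights, and 0 (without vehicle replicate 2 or CMS25 replicate 3) to 1090 with 1 array left out, the most without CMS50 replicate 3. The cause was not tested. CMS25 minus vehicle had 0 calls under every alternative run. The replicate number as a block gave 2865, 2857 and 56 calls in CMS50 minus vehicle, CMS50 minus CMS25 and the bend, and among the named list genes it ended the call of Sdc4 in CMS50 minus vehicle. With only the compared groups no bend can be fitted. Beside the changes without single arrays given with each list, rises among Hippo components went from 2 to 5 with array weights and 4 with only the compared groups. Rises among other matricellular genes went from 1 to 3 with no minimum or with each probe set and to 2 with array weights or only the compared groups, and falls among TGF-beta genes from 4 to 2 over probe set means. Signal over background limits Adamts4 and Ccn1, whose vehicle mean of 5.03 and CMS25 mean of 5.12 lie near the minimum.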
